A study of Mus musculus with 15 samples.

Results

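Described here are 9 genes of MH-S cells, a murine alveolar macrophage line, that had changed after exposure to microrods: *Lims2*, *4930447F24Rik*, *Pcp4l1*, *Rgs1*, *Spink5*, *Lat*, *Cst7*, *Tgfbi* and *Aif1*. They were chosen from an earlier look at the same counts because their level differed between rod-exposed and untreated cells, and they are 9 of the 78317 gene identifiers in the table. They do not stand for all genes that differed with rods. By the thresholds given below, 109 genes were called with CaP rods and 44 with SiO2 rods against untreated cells. The question was how the same genes stood after classical (M1) and alternative (M2) polarization, since a gene that moves with rods may or may not also move with an inflammatory or an IL-4 stimulus. For the 9 genes, the differences between rods and untreated cells are therefore a description without a test. The comparison of M1 with M2 uses no levels from the rod and M0 libraries of that choice, whereas both comparisons with untreated cells share the M0 libraries with it. The spread was estimated from all 15 libraries in each comparison, and earlier results of these data were known when the genes were chosen.

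RNA-seq was performed on 15 wells of MH-S cells in 5 groups of 3, each treated for 24 h. Medium alone gave the M0 group. The CaP group received rods with a calcium phosphate framework and the SiO2 group rods with a silica framework, both prepared with alginate, protamine and carboxymethyl chitosan and given at 0.1 mg/mL, with a separately prepared rod batch for each replicate. M1 cells received LPS at 1 µg/mL together with IFN-γ at 20 ng/mL, and M2 cells received IL-4 at 20 ng/mL. The labels name no genetic change, and all wells come from 1 cell line, so p-values measure the spread between wells.

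The 9 genes have different roles in cells. *Lims2* (PINCH2) is an adaptor of the integrin-linked kinase complex at sites of adhesion, *Tgfbi* encodes a secreted matrix protein that integrins bind, and *Aif1* (IBA1) encodes a calcium-binding, actin-bundling protein of macrophages and microglia. *Rgs1* ends signalling from chemokine and other G protein-coupled receptors, *Lat* is the membrane scaffold on which signalling complexes assemble below antigen and Fc receptors, and *Pcp4l1* belongs to the small proteins with a calmodulin-binding IQ motif. *Spink5* encodes a secreted inhibitor of serine proteases, *Cst7* (cystatin F) an inhibitor of cysteine proteases that acts within lysosomes, and *4930447F24Rik* is annotated as a processed transcript with no known function. In macrophages, LPS with IFN-γ drives an inflammatory state, and IL-4 acts through STAT6.

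Counts summed to between 8459643 and 68750050 per library. M0 replicate 3 (−42.7), M2 replicate 2 (−43.9) and, less far, SiO2 replicate 2 (−21.7) stood apart from the others of their group on the second principal component, which held 24.1% of the variance. The first 2 of these are also the shallowest libraries. The stimuli were visible in the libraries: the summed level of *Il1b*, *Il6* and *Nos2* was 417 to 513 CPM (counts scaled to the size of each library) in M1 and at most 3.56 CPM elsewhere, and that of *Arg1*, *Ccl24* and *Clec10a* was 1587 to 1958 CPM in M2 and at most 37.1 CPM elsewhere. Of the macrophage markers, *Cd68*, *Csf1r* and *Lyz2* were abundant, with *Lyz2* at a mean of 1847 CPM in M0 and 368 CPM in M2. *Adgre1* went the other way, from 61.8 CPM in M0 to 195 CPM in M2 and 296 CPM in M1. *Itgam* stood at 33.2 CPM in M0 and 28.8 CPM in M2, and *Itgax* at 2.51 and 3.52 CPM. *Siglecf*, *Mertk* and *Pparg*, which mark alveolar macrophages in the lung, stayed at group means of at most 0.482 CPM, and *Marco* at 2.18 CPM in M1 and at most 0.147 CPM elsewhere. Summed markers of epithelial cells reached at most 0.205 CPM and those of fibroblasts at most 0.232 CPM in any library.

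All 9 genes passed the filter on low counts, which left 16654 genes for the test. A gene was called at a Benjamini-Hochberg adjusted p below 0.05 over all of these genes and an absolute log2 fold change above 0.5 in edgeR's quasi-likelihood test. That test also gave every adjusted p and every log2 fold change below. The standard error (SE) of each fold change was derived from the F statistic of the test. Values are listed in the order of replicates 1 to 3, with n = 3 per group throughout. The libraries come from bulk RNA, in which fewer cells that express a gene and less RNA per cell cannot be told apart.

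**Figure D1:**
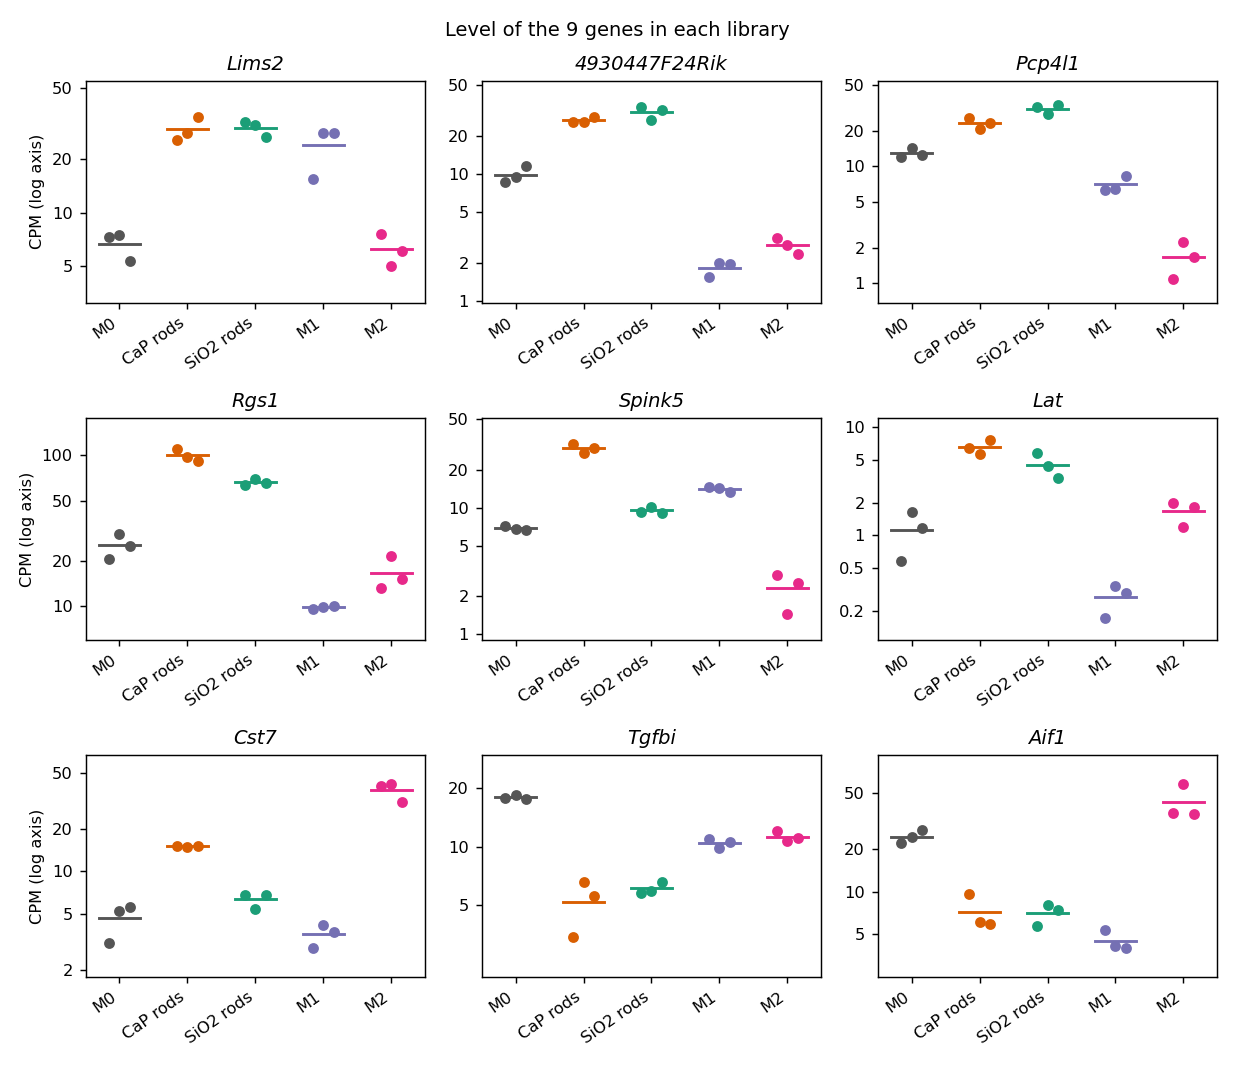
Level of each of the 9 genes in CPM on a log axis, with 1 panel per gene, 1 point per library and a line at the mean of each group of 3. *Lims2* and *Spink5* lay above M0 in M1, *Cst7* was highest in M2 (30.8 to 41.6 CPM), and *4930447F24Rik* and *Pcp4l1* lay below M0 in both polarized groups.

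*Lims2* (ENSMUSG00000024395) was high with both rods and in M1. In M0 the libraries held 7.35, 7.48 and 5.33 CPM. With CaP rods they held 25.6, 28.2 and 34.4 CPM, and with SiO2 rods 32.35, 31.3 and 26.7 CPM. M1 gave 15.6, 28.2 and 28.0 CPM, so that 2 of its libraries lay within the range of the rods and replicate 1 below it, while M2 gave 7.64, 5.00 and 6.10 CPM and overlapped M0. The level rose 3.51-fold in M1 against M0 (log2 fold change 1.81, SE 0.25, adjusted p = 2.67e-04). M2 against M0 stood at −0.11 (SE 0.26, adjusted p = 0.877), with a 95% interval of −0.68 to 0.46, and M1 was 3.79-fold higher than M2 (log2 fold change 1.92, SE 0.25, adjusted p = 1.14e-04). Beside these, the rod groups stood at 2.11 (SE 0.25) for CaP and 2.14 (SE 0.25) for SiO2 against M0 on the log2 scale, and M1 differed from CaP by −0.30 (SE 0.23) and from SiO2 by −0.33 (SE 0.23). *Lims2* shares 188 exonic bases with *Gpr17* on the other strand, but *Gpr17* had 10 counts in all libraries against 6705 for *Lims2*.

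*Tgfbi* (ENSMUSG00000035493) lay below every M0 library in every treated library. M0 held 17.8, 18.5 and 17.7 CPM. The rods gave the lowest levels, 3.38, 6.57 and 5.56 CPM with CaP and 5.73, 5.90 and 6.58 CPM with SiO2. M1 (10.9, 9.78 and 10.6 CPM) and M2 (12.01, 10.66 and 11.02 CPM) overlapped each other and lay between M0 and the rods without overlap with either. Against M0 the level fell by 0.79 on the log2 scale in M1 (SE 0.21, adjusted p = 0.0218), whereas M2 stood at −0.68 (SE 0.21, adjusted p = 0.0884). The direct difference between M1 and M2 was −0.11 (SE 0.21, adjusted p = 0.751, 95% interval −0.58 to 0.36). For comparison, CaP stood at −1.83 (SE 0.21) and SiO2 at −1.57 (SE 0.21), and the M1 level was 2.06 times that with CaP and 1.71 times that with SiO2. The M1 call was lost without M0 replicate 2 (adjusted p = 0.0574), M1 replicate 2 (0.0897) or M1 replicate 3 (0.0662), and the M2 difference was called in edgeR without CaP replicate 1 (0.0149).

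*Aif1* (ENSMUSG00000024397) separated M1 from M2 and went with the rods in M1. The libraries of M0 held 22.1, 24.3 and 27.1 CPM. CaP gave 9.64, 6.11 and 5.86 CPM, SiO2 5.68, 8.02 and 7.37 CPM, and M1 5.33, 4.10 and 3.98 CPM, so the M1 libraries lay below all rod libraries. M2 gave 36.1, 57.6 and 35.5 CPM, all above M0, with the shallow replicate 2 highest. The level fell by 2.45 on the log2 scale in M1 against M0 (SE 0.27, adjusted p = 3.78e-05) and was 9.56 times lower in M1 than in M2 (log2 fold change −3.26, SE 0.28, adjusted p = 1.87e-06). M2 against M0 stood at 0.81 (SE 0.24, adjusted p = 0.0841), and this difference passed only without CaP replicate 1 among the libraries left out in turn (adjusted p = 0.0469). The rod differences from M0 were −1.75 (SE 0.25) for CaP and −1.80 (SE 0.26) for SiO2.

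The promoters of *Tgfbi* and *Aif1* are shown because these are the 2 genes that were lower with both rods and in M1, and because each holds a match to the interferon-stimulated response element. The sequences are the 250 bases before the start of the gene in RefSeq on GRCm38.p6, at chr13:56609336-56609585 on the plus strand for *Tgfbi* and chr17:35176053-35176302 on the minus strand for *Aif1*, written 5′ to 3′ along the gene. Capitals mark motif matches on either strand.
Tgfbi: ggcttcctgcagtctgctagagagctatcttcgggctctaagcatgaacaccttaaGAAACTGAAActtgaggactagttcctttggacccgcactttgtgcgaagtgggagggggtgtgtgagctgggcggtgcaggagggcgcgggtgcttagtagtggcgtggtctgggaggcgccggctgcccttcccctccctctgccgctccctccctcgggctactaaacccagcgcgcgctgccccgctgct
Aif1: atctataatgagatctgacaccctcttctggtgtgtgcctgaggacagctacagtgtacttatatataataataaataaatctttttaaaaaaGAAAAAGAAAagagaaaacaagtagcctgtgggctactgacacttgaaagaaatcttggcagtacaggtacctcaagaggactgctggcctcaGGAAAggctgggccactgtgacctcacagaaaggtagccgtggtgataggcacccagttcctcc
The element was searched as GAAA, any 2 bases and GAAA, and begins 194 bases before the start in *Tgfbi* and 157 bases before it in *Aif1*, and the remaining capitals in *Aif1* are the NFAT core GGAAA. Of all 32851 promoters in the table, 2.98% held the element and 55.6% the NFAT core. Promoters of 6 of the 9 genes were matched, 7 in all, and none of these held the STAT6 site (TTC and GAA with any 4 bases between), which 5.85% of all promoters held, the AP-1 site TGANTCA (6.75%) or the NF-kB motif (7.25%). The GAS site TTCNNNGAA, held by 7.02% of all promoters, was found in 1 of the 2 promoters of *4930447F24Rik*. A match is a description of the letters and not a binding site. No match says only that these letters are not in the window.

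*Rgs1* (ENSMUSG00000026358) was high with rods and low in M1. M0 held 20.6, 30.1 and 25.3 CPM. The CaP libraries were highest at 110, 98.0 and 91.2 CPM, followed without overlap by SiO2 at 63.6, 69.8 and 65.2 CPM. The M1 libraries held 9.63, 9.98 and 10.1 CPM, all below M0 and M2, and the M2 libraries held 13.2, 21.5 and 15.3 CPM, with replicate 2 inside the range of M0. *Rgs1* fell by 1.35 on the log2 scale in M1 against M0 (SE 0.20, adjusted p = 4.33e-04) and was lower in M1 than in M2 (log2 fold change −0.73, SE 0.20, adjusted p = 0.0227). M2 against M0 stood at −0.62 (SE 0.19, adjusted p = 0.0956) and was called without M2 replicate 2 (adjusted p = 0.0222). Against M0 the rods stood at 1.98 (SE 0.19) for CaP and 1.39 (SE 0.19) for SiO2, opposite in sign to M1, and the M1 level was 10.1 times lower than that with CaP. The difference between M1 and M2 was not called without M1 replicate 1 (adjusted p = 0.0719), replicate 2 (0.0667) or replicate 3 (0.0611).

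*Lat* (ENSMUSG00000030742) had the fewest counts of the 9, 1197 over all libraries. M0 held 0.579, 1.63 and 1.16 CPM. With CaP rods it reached 6.46, 5.59 and 7.58 CPM and with SiO2 rods 5.73, 4.39 and 3.37 CPM, and the rod groups overlapped. M1 held 0.172, 0.342 and 0.292 CPM, which were 2, 5 and 3 counts, and M2 held 1.98, 1.18 and 1.83 CPM and overlapped M0. The M1 libraries lay below all others, and M1 was lower than M2 (log2 fold change −2.66, SE 0.52, adjusted p = 0.00273). M1 against M0 stood at −1.86 (SE 0.58, adjusted p = 0.0446), while the summed counts, 10 against 57, gave a ratio of 0.297 with a 95% interval of 0.135 to 0.588 that covers counting error only. The call in M1 rests on little: it was lost without M0 replicate 2 (adjusted p = 0.145) or 3 (0.0714), M1 replicate 1 (0.130), 2 (0.0965) or 3 (0.112), CaP replicate 3 (0.0511), SiO2 replicate 2 (0.0530), or M2 replicate 1 (0.0553) or 3 (0.0509). M2 against M0 was 0.80 (SE 0.38, adjusted p = 0.296, 95% interval −0.04 to 1.63), and the rods stood at 2.70 (SE 0.34) for CaP and 2.15 (SE 0.35) for SiO2.

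*Lat* is best known from T cells, so their markers were read in the same libraries. Of 9 T cell markers, *Cd28* was the one with a level above a trace, at group means of 4.22 CPM in M1 and 8.29 to 10.3 CPM in the other groups, while the others had at most 6 counts each over all 15 libraries and *Trbc1* had 0. *Cd28* was lower in M1 than in M0 (log2 fold change −0.96, SE 0.22, adjusted p = 0.0109), as was *Lat*, and its part in that result was not tested. The summed level of the 9 markers was 3.55 to 4.90 CPM in M1, 6.74 to 9.61 CPM in M0, 8.68 to 10.3 CPM with CaP, 7.94 to 10.4 CPM with SiO2 and 8.90 to 12.6 CPM in M2. The promoter of *Lat* (RefSeq, GRCm38.p6, chr7:126369569-126369818, minus strand, 5′ to 3′) is shown because among the 7 promoters it alone held CACGTG, the core of the element that lysosomal genes share.
Lat: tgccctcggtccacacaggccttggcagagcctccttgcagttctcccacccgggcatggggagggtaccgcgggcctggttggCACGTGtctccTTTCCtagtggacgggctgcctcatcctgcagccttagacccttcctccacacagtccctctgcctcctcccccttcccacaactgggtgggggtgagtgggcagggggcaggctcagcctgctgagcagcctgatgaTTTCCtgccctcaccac
Capitals mark CACGTG, 166 bases before the start, and 2 matches to the NFAT core on the other strand, and 6.02% of all promoters held CACGTG.

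*Pcp4l1* (ENSMUSG00000038370) gave 5 groups with no overlap between neighbours. Its lowest level was in M2, with 1.09, 2.24 and 1.67 CPM, followed by M1 with 6.28, 6.43 and 8.36 CPM. M0 held 12.1, 14.2 and 12.5 CPM. CaP gave 26.1, 20.9 and 23.7 CPM and SiO2 32.4, 27.8 and 33.6 CPM. Both stimuli thus lay on the other side of M0 from the rods. *Pcp4l1* fell by 3.00 on the log2 scale in M2 (SE 0.23, adjusted p = 3.53e-06) and fell by 0.89 in M1 (SE 0.20, adjusted p = 0.0104), and M1 was 4.33-fold higher than M2 (log2 fold change 2.11, SE 0.24, adjusted p = 2.96e-05). The M1 call was lost without M1 replicate 2 (adjusted p = 0.0543). Rods stood at 0.87 (SE 0.19) for CaP and 1.28 (SE 0.19) for SiO2 against M0, and the SiO2 level was 19.4 times that of M2, the widest such gap among the 9 genes for SiO2.

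*4930447F24Rik* (ENSMUSG00000102224) was high with both rods and low with both stimuli. M0 held 8.67, 9.37 and 11.5 CPM. The rod libraries held 25.7, 25.5 and 28.2 CPM with CaP and 33.6, 26.4 and 31.6 CPM with SiO2. In M1 it was at 1.55, 1.98 and 1.94 CPM and in M2 at 3.139, 2.76 and 2.33 CPM, so that no library of a stimulus reached any M0 library. Against M0 it fell by 2.41 on the log2 scale in M1 (SE 0.22, adjusted p = 4.70e-06) and fell by 1.86 in M2 (SE 0.20, adjusted p = 8.86e-05), whereas the rods stood at 1.45 (SE 0.17) for CaP and 1.65 (SE 0.18) for SiO2. All M1 libraries lay below all M2 libraries, but the difference of −0.55 (SE 0.23) was not called (adjusted p = 0.135).

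*Spink5* (ENSMUSG00000055561) also had no overlap between neighbouring groups, and its order was CaP, M1, SiO2, M0 and M2 from the highest. CaP gave 32.0, 27.3 and 29.7 CPM. M1 gave 14.6, 14.2 and 13.3 CPM, SiO2 9.25, 10.2 and 9.15 CPM, and M0 7.16, 6.83 and 6.72 CPM. M2 held 2.93, 1.45 and 2.56 CPM. *Spink5* rose 2.03-fold in M1 against M0 (log2 fold change 1.02, SE 0.18, adjusted p = 0.00201) and fell by 1.503 on the log2 scale in M2 (SE 0.20, adjusted p = 6.46e-04). M1 was 5.75-fold higher than M2 (log2 fold change 2.52, SE 0.20, adjusted p = 1.01e-06). The description of the rods gave 2.10 (SE 0.18) for CaP and 0.46 (SE 0.18) for SiO2 against M0, so the M1 value lay between those of the rods, 2.11 times below CaP and 1.48 times above SiO2.

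*Cst7* (ENSMUSG00000068129) was the gene of the 9 called higher with IL-4 against M0. M2 held 40.3, 41.6 and 30.8 CPM, above every other library. CaP followed with 15.1, 14.9 and 15.1 CPM. SiO2 (6.80, 5.37 and 6.78 CPM), M0 (3.08, 5.20 and 5.56 CPM) and M1 (2.84, 4.17 and 3.69 CPM) overlapped as neighbours. The level rose 8.43-fold in M2 against M0 (log2 fold change 3.07, SE 0.24, adjusted p = 3.77e-06) and was 10.4 times lower in M1 than in M2 (log2 fold change −3.38, SE 0.25, adjusted p = 4.68e-07). M1 against M0 stood at −0.31 (SE 0.26, adjusted p = 0.471, 95% interval −0.89 to 0.27). With CaP it stood at 1.76 (SE 0.23) against M0 and with SiO2 at 0.52 (SE 0.24), and the M2 level was 2.48 times that with CaP. Its promoter (RefSeq, GRCm38.p6, chr2:150570165-150570414, plus strand, 5′ to 3′) is shown for the M2 rise, with 2 matches to the NFAT core in capitals and no match to the STAT6 site.
Cst7: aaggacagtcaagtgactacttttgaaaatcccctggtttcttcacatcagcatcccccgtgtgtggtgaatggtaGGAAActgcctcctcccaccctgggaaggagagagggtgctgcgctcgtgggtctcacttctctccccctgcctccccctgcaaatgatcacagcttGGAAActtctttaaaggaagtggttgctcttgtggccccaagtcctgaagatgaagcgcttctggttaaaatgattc

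**Figure D2:**
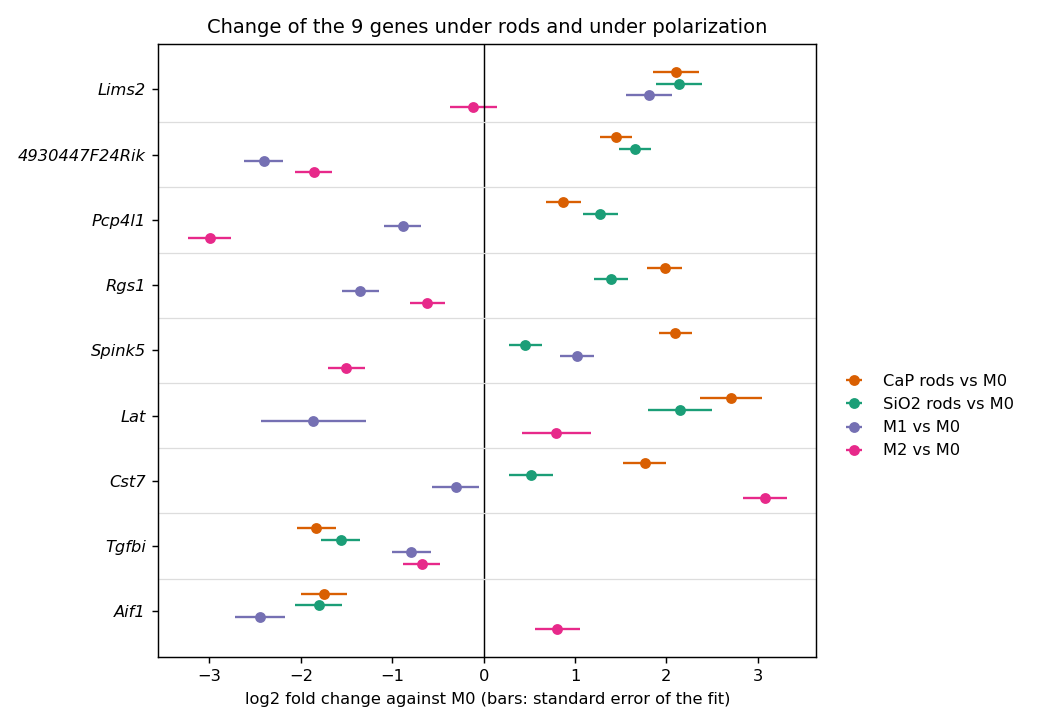
Log2 fold change against M0 of each of the 9 genes with CaP rods, SiO2 rods, M1 and M2, with 1 point per comparison and bars of 1 standard error from the fit. *4930447F24Rik*, *Pcp4l1* and *Rgs1* were to the right of 0 with both rods and to the left of 0 in M1 and M2, while *Cst7* reached 3.07 in M2.

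Over the 9 genes, 8 were called in M1 against M0, where 14.1% of all genes tested were called. The 2 called higher were *Lims2* and *Spink5* (9.70% of all genes were called higher) and the 6 called lower were *4930447F24Rik*, *Pcp4l1*, *Rgs1*, *Lat*, *Tgfbi* and *Aif1* (4.35% of all genes). Without M1 replicate 2, 5 of the 9 were called, since *Pcp4l1*, *Lat* and *Tgfbi* were lost. M2 against M0 called 4 of the 9, with 4.13% of all genes called: *Cst7* was higher (2.00% of all genes), and *4930447F24Rik*, *Pcp4l1* and *Spink5* were lower (2.13% of all genes). The libraries did not overlap with those of M0 for 8 of the 9 in M1 (32.2% of all genes tested) and for 6 of the 9 in M2 (15.2%). The median absolute log2 fold change of the 9 was 1.35 in M1 against 0.44 for all genes tested, and 0.81 in M2 against 0.31. These counts use the M0 libraries on which the choice of the 9 genes also rests.

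The difference between M1 and M2 uses no M0 or rod levels, although its spread was estimated from all 15 libraries. It is not fully free of the choice, since earlier results of these data were known. Here 7 of the 9 were called, where 16.1% of all genes tested were called. *Lims2*, *Pcp4l1* and *Spink5* were higher in M1 (10.6% of all genes), and *Rgs1*, *Lat*, *Cst7* and *Aif1* were higher in M2, that is, lower in M1 (5.47% of all genes). The libraries of M1 and M2 did not overlap for 8 of the 9, which was so for 29.4% of all genes, and *Tgfbi* was the exception. The median absolute log2 fold change was 2.11 for the 9 and 0.46 for all genes tested.

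**Figure D3:**
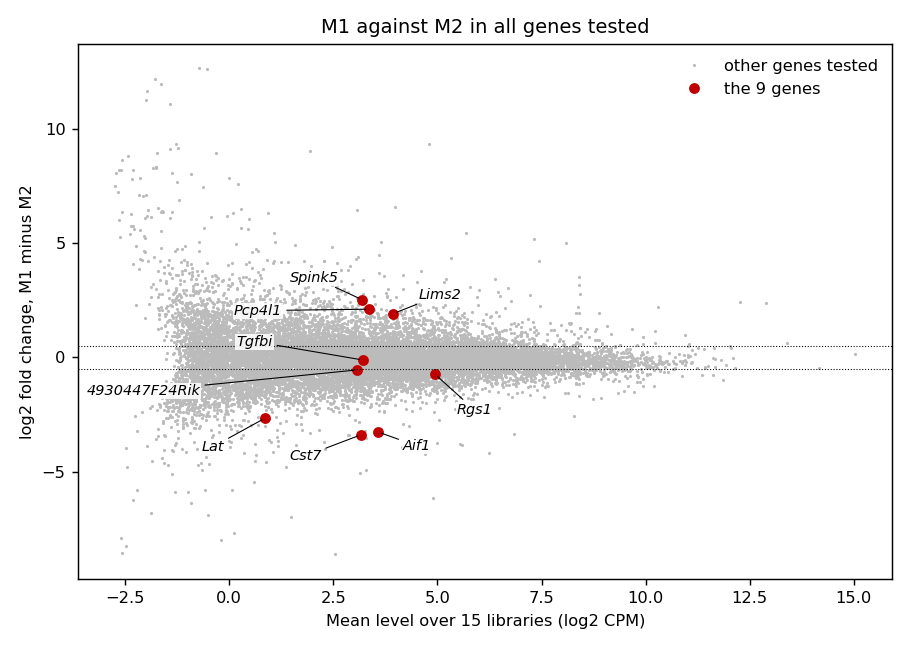
Log2 fold change of M1 against M2 (vertical axis) over the mean level in log2 CPM of the 15 libraries (horizontal axis) for all 16654 genes tested, with the 9 genes in red and dotted lines at the fold threshold of 0.5 in either direction. *Spink5* (2.52), *Pcp4l1* (2.11) and *Lims2* (1.92) lay above 0, *Cst7* (−3.38), *Aif1* (−3.26) and *Lat* (−2.66) well below it, and *Tgfbi* (−0.11) between the lines.

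Set side by side with the rods, the 9 genes fell into different orders. *Lims2* had the sign of both rods in M1 and a difference near 0 in M2, and *Spink5* had it in M1 and the opposite sign in M2. *Cst7* had the sign of the rods in M2. The 3 genes *4930447F24Rik*, *Pcp4l1* and *Rgs1* had the sign opposite to the rods in M1 and, in M2, a call (*4930447F24Rik* and *Pcp4l1*) or a value of −0.62 that was not called (*Rgs1*). *Lat* had the opposite sign in M1 and was not called in M2. *Aif1* had the sign of the rods in M1 and the opposite sign in M2, with a value of 0.81 that was not called. *Tgfbi* had the sign of the rods in M1, with a value of −0.68 in M2 that was not called. The ratio of the highest to the lowest group mean ran from 3.48 for *Tgfbi* to 24.4 for *Lat*.

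The partners of these genes were read from 8 lists of 97 genes, of which 73 were tested. In M1 against M0, 14 of the 73 (19.2%) were called, 9 higher and 5 lower, beside 14.1% of all genes, and in M2, 9 (12.3%) were called, 3 higher and 6 lower, beside 4.13%. M1 and M2 differed in 25 of the 73 (34.2%), 14 higher in M1 and 11 lower, beside 16.1% of all genes. The same shares of all genes apply to the counts in each list below. The median log2 fold change of the 73 was 0.13 in M1 (−0.01 for all genes), 0.00 in M2 (0.07) and −0.06 between M1 and M2 (−0.04). With rods, 4 of the 73 were called for CaP, where 0.654% of all genes were called, and 0 for SiO2 in edgeR, where 0.264% were called. The lists were written with earlier results of these same libraries known. The rod counts and adjusted p-values of the partners are therefore a description and no independent evidence. At an unadjusted p below 0.05, 17 differed with CaP (15.8% of all genes) and 9 with SiO2 (8.15% of all genes), and DESeq2 called 1 with SiO2. The M2 count was 3 to 5 without M0 replicate 1, 2 or 3, CaP replicate 2, SiO2 replicate 3, M1 replicate 3, or M2 replicate 1 or 3, and the M1 count was 23 without M2 replicate 2. The CaP count was 0 without M0 replicate 1, 2 without M0 replicate 3, CaP replicate 2 or 3, SiO2 replicate 1 or 2, M1 replicate 3 or M2 replicate 1, and 7 without M2 replicate 2, and the SiO2 count was 1 without M2 replicate 1 or 2.

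None of the 9 tested partners of *Lims2* in the integrin-linked kinase complex was called by edgeR in M1, M2, CaP or SiO2 against M0 or between M1 and M2, with 0 at an unadjusted p below 0.05 in the 4 comparisons with M0, 1 between M1 and M2. The close relative *Lims1* had means of 133 CPM in M0, 145 CPM in M1 and 116 CPM in M2. Among 11 genes of the RGS family and its G proteins, *Rgs2*, another brake on G protein signalling, fell in M1 from a mean of 106 ± 20.4 CPM (SD) to 6.42 ± 1.51 CPM (log2 fold change −4.05, SE 0.48, adjusted p = 6.16e-05). Between M1 and M2, 4 of the 11 were lower in M1, *Rgs2* (−3.83), *Rgs18* (−1.56), *Rgs14* (−1.30) and *Gnai2* (−0.65). *Rgs16* rose with CaP, from 3.54 ± 1.08 to 11.8 ± 3.04 CPM (log2 fold change 1.80, SE 0.27, adjusted p = 0.00643). Of 6 tested genes of calmodulin signalling, the kinase *Camk1* rose in M2 (log2 fold change 1.12, SE 0.29, adjusted p = 0.0492) and was the one called. Its mean went from 40.2 ± 6.74 CPM in M0 to 87.3 ± 39.8 CPM in M2. *Camk1* was also higher with rods, at 1.10 (SE 0.29, adjusted p = 0.241) for SiO2 and 0.79 (SE 0.29, adjusted p = 0.226) for CaP, neither called.

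In the LAT signalosome, 2 of 11 tested partners rose in M1, the adaptor *Lcp2* (SLP-76; log2 fold change 1.04, SE 0.22) and the kinase *Syk* (1.09, SE 0.21), while *Lat* itself was lowest there. Between M1 and M2, 5 of the 11 were called. *Syk* (1.25), *Lyn* (1.18), *Lcp2* (1.11) and *Sos1* (0.97) were higher in M1 on the log2 scale, opposite to *Lat*, and its relative *Lat2* was lower (−0.66, SE 0.17, adjusted p = 0.0186). Of 4 tested serine protease inhibitors, 3 rose in M1. *Slpi*, an inhibitor of neutrophil elastase, rose from 16.1 ± 5.53 to 137 ± 37.5 CPM in M1 and fell to 1.37 ± 0.189 CPM in M2, log2 fold changes of 3.11 (SE 0.28) and −3.50 (SE 0.33). *Wfdc17* rose from 75.3 ± 14.1 to 2922 ± 626 CPM in M1, and *Wfdc21*, with 0 CPM in every M0 library, stood at 24.9 ± 2.07 CPM in M1. *Slpi* had the signs of *Spink5* in both comparisons with M0. *Spint2* had the opposite signs, −0.65 (SE 0.56) in M1 and 1.29 (SE 0.39) in M2, neither called, and *Wfdc17* stood at 0.11 (SE 0.34) in M2. Between M1 and M2 all 4 were called, 3 higher in M1 and *Spint2* lower (−1.93, SE 0.48, adjusted p = 0.0130).

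Of 10 tested cystatins and cysteine cathepsins, *Cst3* (cystatin C) fell by 1.11 on the log2 scale in M1 (SE 0.21) and *Ctsc* rose by 0.62 (SE 0.18), while in M2 *Ctsh* rose by 1.25 (SE 0.16) and *Ctsl* fell by 0.76 (SE 0.19). *Cst3* stood at 0.12 in M2 (SE 0.20, adjusted p = 0.831), where *Cst7* rose. With CaP, *Ctsk* was the 1 called of the 10, from 0.125 ± 0.0924 to 0.888 ± 0.176 CPM (log2 fold change 3.11, SE 0.55, adjusted p = 0.00923). It stood at 2.66 with SiO2 (SE 0.61, adjusted p = 0.0993) and had at most 3 counts in any M0 library. *Ctsk* was not called in M1 or M2 against M0. In the TGF-beta list of 14, among others M1 raised *Thbs1* (log2 fold change 4.06, SE 0.40) and lowered the receptor *Tgfbr1* (−1.49, SE 0.36) and the integrin subunits *Itgav* (−0.94, SE 0.25) and *Itgb5* (−0.97, SE 0.20). M2 lowered 4 of the 14, *Skil* (−1.45, SE 0.38), *Tgfbr1* (−1.35, SE 0.32), *Itgb5* (−0.97, SE 0.20) and *Tgif1* (−0.74, SE 0.15), and raised 0, with 8 of the 14 at an unadjusted p below 0.05. With rods and not called, *Skil* stood at −1.43 (SE 0.37) for CaP and −1.16 (SE 0.37) for SiO2. *Tgfbr1* stood at −1.12 (SE 0.29) and −0.70 (SE 0.30), whereas *Tgif1* stood at 0.24 (SE 0.15) and 0.05 (SE 0.15). *Itgb5* stood at −0.64 (SE 0.20) with SiO2, also not called. CaP lowered 2 of the 14, *Itgb5* (−0.94, SE 0.19, adjusted p = 0.0454) and *Thbs1*. *Thbs1* went from 0.432 ± 0.245 to 0.0137 ± 0.0237 CPM (adjusted p = 0.0472), opposite to its direction in M1. The *Thbs1* call with CaP rests on few counts, at most 8 in any M0 library. Its group means were at most 0.432 CPM outside M1, beside 5.76 CPM in M1. Among 8 relatives of *Aif1* and actin-bundling genes, the GTPase *Rac2* rose in M1 (1.79, SE 0.28) and *Cotl1* in M2 (1.15, SE 0.30).

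**Figure D4:**
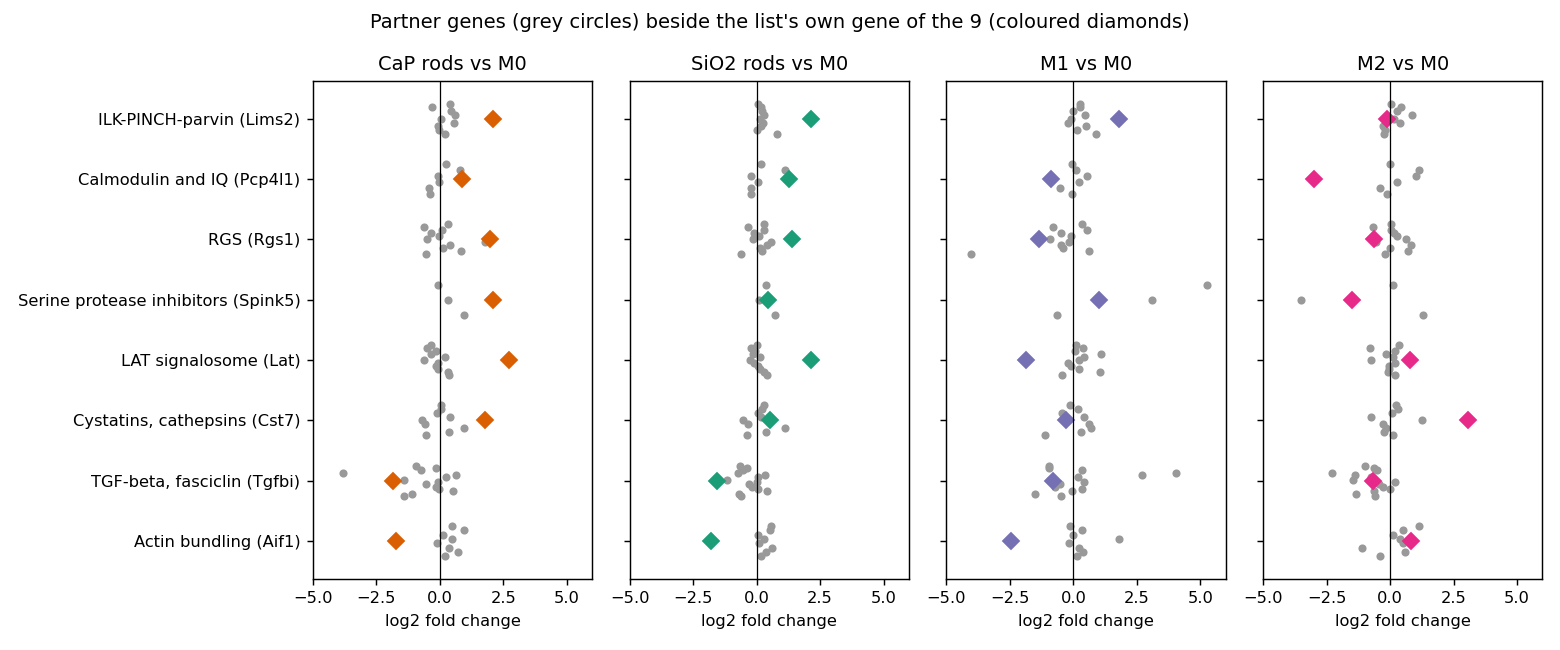
Log2 fold change against M0 of the tested partner genes (grey circles, 1 per gene) and of the gene of the 9 to which each list belongs (coloured diamonds), in 4 panels for CaP rods, SiO2 rods, M1 and M2. *Wfdc21* and *Ctsk*, which had at most 3 counts in every M0 library, are not drawn. With CaP 4 of the 73 tested partners were called, *Ctsk* among them, and with SiO2 0, in edgeR.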

How the data were processed

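Poly-A RNA from 15 wells of MH-S cells was made into Smart-seq2 libraries by the authors and processed with nf-core/rnaseq (STAR and Salmon, Ensembl annotation, GRCm39 in the submitters' notes). The authors deposited raw counts per Ensembl identifier as whole numbers, without normalization. Salmon estimates counts, so they may be rounded. Of 78317 identifiers, 51487 received a symbol from a mouse annotation, and 0 columns were left unused.

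Groups were taken from the labels. The analysis ran in R 4.3.3 and used edgeR 4.0.16 with limma 3.58.1 (filterByExpr by group, TMM, quasi-likelihood fit of all 15 libraries with group as the only term, Benjamini-Hochberg adjustment). Fits were tested on simulated data. DESeq2 1.42.0 and other settings served as alternatives. CPM use the scaled library sizes. Intervals of log2 fold changes were built from the derived SE and a t distribution with the residual degrees of freedom, and include the spread between wells. They are approximate, since the test itself used other degrees of freedom. The interval of the summed counts of *Lat* covers counting error only, since the reads carry no molecular identifiers. Low genes are least precise in the shallowest libraries, with totals from 8459643 counts.

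The 9 genes, the partner lists and the tests were chosen with earlier results of these data known. All 9 genes are named in every comparison. Called partners may be named, largest change first, at most 4 a list in each comparison, and *Lims1*, *Lat2* and the markers were named in addition. Some items are not reported here. The likest genes are the 2 with the highest Pearson correlation over 15 libraries among those of at least 5 CPM on average. Motifs were searched in RefSeq promoters on GRCm38.p6, a build other than that of the counts.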

Additional observations from a re-analysis of the deposited data

How the results depend on the processing

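Of 645 tests of the 9 genes under the alternatives, 616 kept their direction and call, 25 kept the direction and lost the call, 4 gained one and 0 reversed. Members called ranged over the libraries left out in turn from 5 to 8 in M1 against M0 (8 with all), 4 to 6 in M2 against M0 (4) and 6 to 7 between M1 and M2 (7). DESeq2 called *Tgfbi* in M2 (adjusted p = 0.0207). Without a filter, *Pcp4l1* (0.0586) and *Tgfbi* (0.119) in M1 and *Rgs1* between M1 and M2 (0.0705) were not called. With the M0, M1 and M2 libraries only, *Lat* (0.0657), *Pcp4l1* (0.0517) and *Rgs1* between M1 and M2 (0.0793) were not called, and thinning to the smallest library lost *Rgs1* (0.0558).

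Partners called left out in turn ranged from 11 to 23 in M1, 3 to 10 in M2, 0 to 7 with CaP and 0 to 1 with SiO2. In M2, the legacy quasi-likelihood fit called 5 and the fit of M0, M1 and M2 libraries only called 3. With CaP, the legacy fit called 1, no filter 8, thinning 1 and the replicate block 2. With SiO2, DESeq2 called 1 and no filter 3. Without the 2 shallowest libraries, chosen after seeing the data, CaP gave 2, SiO2 1, and *Lat* in M1 an adjusted p of 0.0589. The causes were not tested.

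Replicate numbers showed no steady pairing of the wells. Deviations of same-numbered libraries correlated at −0.749 to 0.704 over 30 pairs, 13 of them over 0.1. Of 15 libraries, 7 correlated best with their own number. With 3 libraries per group, these values cannot show whether some wells were paired. With the replicate block, 7 of the 9 genes were called in M1 against M0, with *Lat* at an adjusted p of 0.0680. A limit of depth is clearest for *Lat*, with 2 to 5 counts in each M1 library.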

Other observations

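The genes whose levels followed those of the 9 most closely were found by Pearson correlation over the 15 libraries, among 10339 genes of at least 5 CPM on average. These values are descriptions without a p, since all libraries of a group share its treatment. *Yipf7* was the likest gene to both *4930447F24Rik* (r = 0.97) and *Rgs1* (r = 0.97), and *4930447F24Rik* was the second likest to *Rgs1* (r = 0.95). *Gpnmb*, a glycoprotein of lysosomes and the cell surface, followed *4930447F24Rik* (r = 0.95), with mean levels of 89.0 CPM in M0, 290 CPM with CaP, 313 CPM with SiO2, 44.2 CPM in M1 and 45.8 CPM in M2. *Rab7b*, a GTPase of late endosomes, followed *Pcp4l1* (r = 0.97).

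*Igf1*, a growth factor of macrophages treated with IL-4, followed *Cst7* (r = 0.91) and stood at 46.9 CPM in M0, 68.0 CPM with CaP, 65.7 CPM with SiO2, 26.0 CPM in M1 and 475 CPM in M2. The chemokine receptor gene *Ccr2* followed *Tgfbi* (r = 0.96), with 15.04 CPM in M0, 3.58 CPM with CaP, 4.27 CPM with SiO2, 7.83 CPM in M1 and 7.33 CPM in M2. The transcription factor gene *Klf4* followed *Aif1* (r = 0.94), from 2.99 CPM in M1 to 17.2 CPM in M2. *Hcar2* followed *Lims2* (r = 0.94), *Pdgfb* followed *Spink5* (r = 0.93) and *Echdc3* followed *Lat* (r = 0.98).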
